A study of Homo sapiens with 12 samples.

Results

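The 10 genes examined here were EGR1, EGR2, EGR3, FOS and NR4A1, which encode transcription factors of the immediate early response, and DUSP2, DUSP4, DUSP6, SPRY2 and SPRED2, which encode inhibitors that act back on ERK signaling. They were taken as a named list of readouts of receptor signal strength, chosen with earlier results of these data known. They were matched by Ensembl identifier and made up 10 of the 63677 genes in the count table. All 10 passed the filter on low counts that left 18674 genes for testing. RNA-seq had been performed on JEKO1, JVM2 and MAVER1 cells, 3 lines of mantle cell lymphoma (MCL), each left untreated or given ironomycin, ibrutinib or the 2 together for 48 h, which made 12 libraries, 1 for each line and treatment. Ironomycin, derived from salinomycin, traps iron in lysosomes, and ibrutinib is a covalent inhibitor of the kinase BTK. JEKO1 received 50 nM of ironomycin and 0.5 μM of ibrutinib, JVM2 received 250 nM and 1.5 μM, and MAVER1 received 250 nM and 6.25 μM, in the single treatments and in the combination alike. The ibrutinib dose differed between all lines and cannot be told apart from the line, as is the case for ironomycin between JEKO1 and the other lines, while JVM2 and MAVER1 received the same ironomycin dose. The line served as the replicate of a treatment (n = 3).

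In B cells, the B-cell receptor (BCR) activates LYN, SYK and BTK, and BTK activates PLCG2. The products of PLCG2 feed the RASGRP exchange factors, RAS, RAF, MEK and ERK, and ERK phosphorylates ELK factors that sit with SRF on the promoters of immediate early genes. Transcripts of EGR1 and FOS appear within minutes of such a signal and decay fast, while DUSP, SPRY and SPRED proteins damp the same cascade, so that their transcripts are widely used as a measure of how much signal passes through it.

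Promoters of the members were looked at because SRF binds a sequence known as the CArG box, and CREB binds the cAMP response element (CRE), TGACGTCA, or its half-site, TGACG. The sequences are from RefSeq on GRCh38.p14, whereas the reads had been aligned to GRCh37, and 8 of the 10 members had an entry, with 14 start sites in all (EGR3 and DUSP4 had none). In the 250 bases before each start, on both strands, a CArG box was present in EGR1, 105 and 83 bases before the start, and in EGR2, 71 bases before the third of its 3 listed start sites, and in no other entry of a member. Of 35116 promoter windows of the same length, 1.16% held a CArG box. The CRE half-site was found in EGR1, EGR2, FOS and the first entry of SPRY2, and in 21.2% of all windows. No member entry held the full CRE (1.65% of all windows), the EGR site GCGTGGGCG (0.72%) or the AP-1 site TGANTCA (6.57%). The absence of these sites, or of a CArG box as in FOS, says only that the letters are not in these 250 bases. Sequence further from the start was not searched. The EGR1 and EGR2 windows that hold CArG boxes are printed 5′ to 3′, since these 2 members had the largest fitted differences over the 6 ibrutinib pairs given further on, with capitals marking the CArG boxes (runs of 10 capitals) and the CRE half-sites (runs of 5 capitals, TGACG or its reverse complement CGTCA). The matches are a description of the sequence and not a measurement of binding.
EGR1, chr5:138465229-138465478, plus strand: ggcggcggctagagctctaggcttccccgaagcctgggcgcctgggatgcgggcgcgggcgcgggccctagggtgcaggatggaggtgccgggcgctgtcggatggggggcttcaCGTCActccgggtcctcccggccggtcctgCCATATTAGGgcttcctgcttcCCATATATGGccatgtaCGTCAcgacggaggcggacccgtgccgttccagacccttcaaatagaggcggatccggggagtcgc
EGR2, start site 3, chr10:62816367-62816616, minus strand: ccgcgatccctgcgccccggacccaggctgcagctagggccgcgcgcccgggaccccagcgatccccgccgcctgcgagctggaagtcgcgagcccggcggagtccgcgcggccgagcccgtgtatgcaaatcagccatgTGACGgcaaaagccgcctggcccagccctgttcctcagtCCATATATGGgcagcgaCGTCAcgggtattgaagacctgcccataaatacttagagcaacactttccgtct

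Library totals ran from 35448523 to 38630809 counted reads (median 38212833). The B-cell markers MS4A1, CD79A, CD79B, PAX5 and CD22 were read at 384 reads or more in every library. Of the MCL markers, CCND1 had 8025 to 11280 reads in JVM2 against 92232 or more in the other lines, SOX11 had 0 reads and CD5 1 to 2 reads in JVM2, so JVM2 lacked 2 of the 3 MCL markers. Of 10 T-cell and myeloid markers, 7 had 61 reads or fewer in every library, while CD3E reached 84 reads and CSF1R and ITGAM 181 and 136. The stromal and epithelial markers ran from at most 2 reads for COL1A2 to 801 to 1247 reads for COL1A1 in MAVER1. Levels are given as CPM, counts per 1000000 reads scaled by TMM, a normalization that uses the bulk of genes as its reference.

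The lines differed in which of the 10 genes they expressed. With control levels expressed per kilobase of annotated exons, so that genes can be compared, DUSP2 was the highest of the 10 in every line, at 33.5 CPM per kb in JEKO1, 79.9 in JVM2 and 18.1 in MAVER1. DUSP2 encodes a nuclear phosphatase that dephosphorylates ERK. NR4A1, an orphan nuclear receptor induced by antigen receptors, came next in JEKO1 (5.88 CPM per kb) and MAVER1 (6.66), whereas DUSP4 (22.1) and SPRY2 (11.97) came next in JVM2. EGR1 stood at 2.99 CPM per kb in JEKO1, 4.42 in JVM2 and 0.0617 in MAVER1. These orders rest on 1 control library per line and carry no error.

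Over the 4 libraries of a line, DUSP4, a nuclear phosphatase of ERK and related kinases, ran from 128 to 198 CPM in JVM2, was at 0 or 1 read in JEKO1 and at 4 to 6 reads in MAVER1. SPRY2, a cytoplasmic inhibitor of signaling from receptor to RAS, lay between 33.5 and 37.2 CPM in JVM2, between 1.75 and 2.36 in JEKO1 and between 1.93 and 2.35 in MAVER1. EGR1 ran from 0.0808 to 0.859 CPM in MAVER1 and lay below every library of JEKO1 (1.25 to 9.37) and JVM2 (3.61 to 21.1). DUSP6, a cytoplasmic phosphatase specific for ERK, ran from 0.396 to 2.10 CPM in MAVER1, above every library of JEKO1 and JVM2, with only 1 to 3 reads in JVM2. The 4-library ranges of JEKO1 and JVM2 did not overlap for 7 of the 10 genes, beside 68.5% of all genes tested. Those of JEKO1 and MAVER1 did not overlap for 4 (all genes 50.9%), and those of JVM2 and MAVER1 for 7 (all genes 62.4%). The members thus separated the lines about as often as genes in general did.

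**Figure D1:**
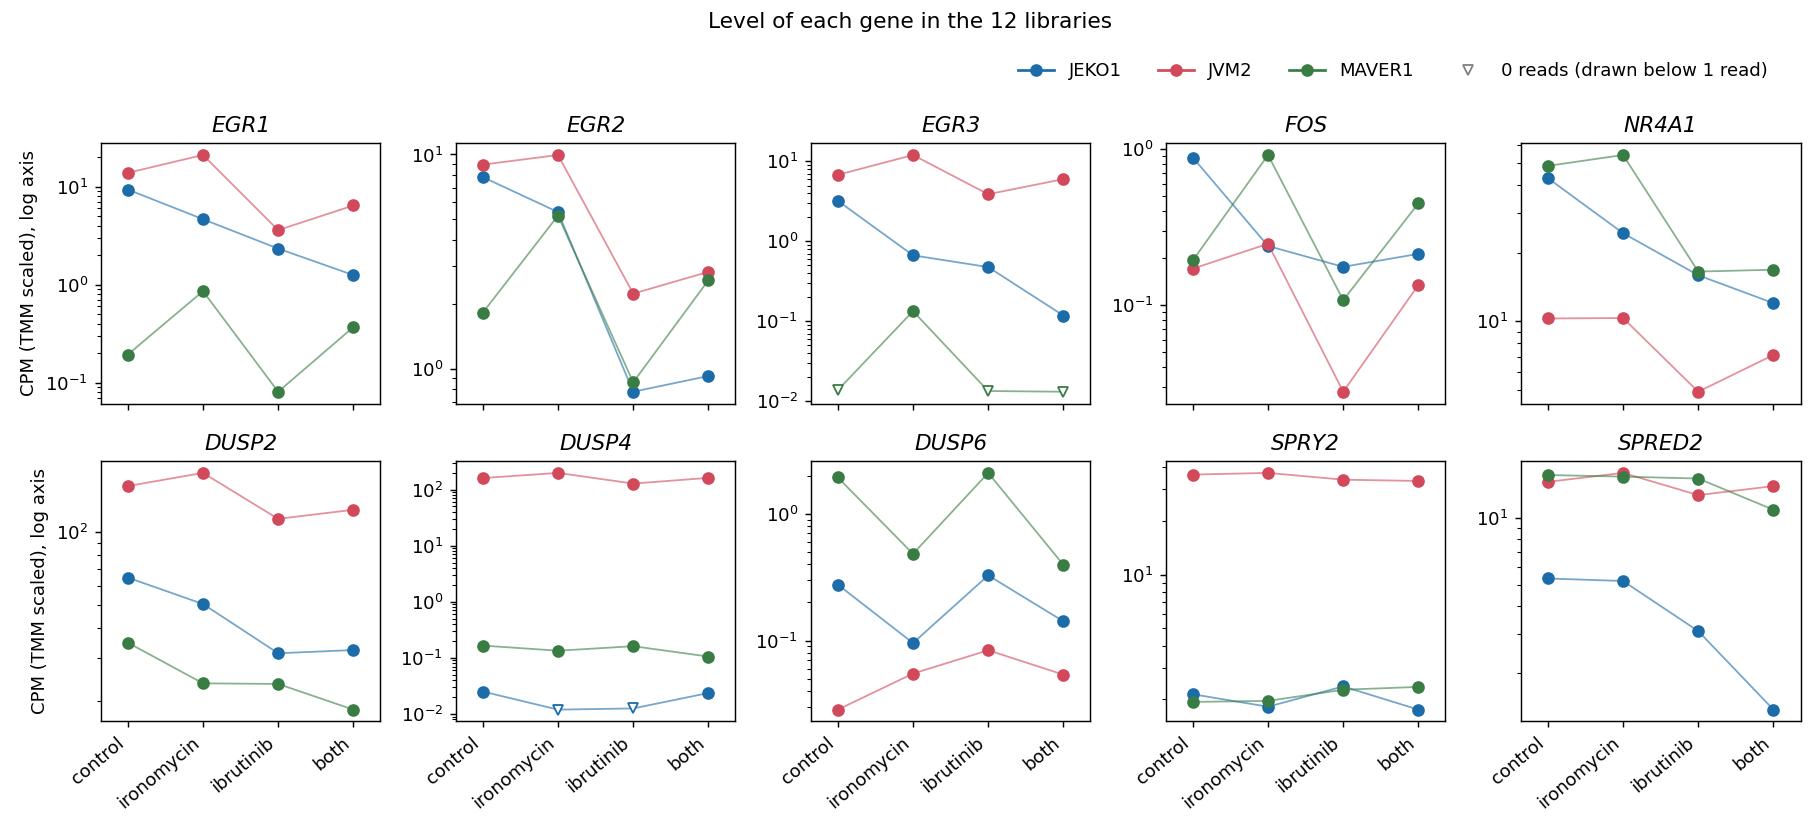
Level of each of the 10 genes in the 12 libraries, in CPM on a log axis, with 1 panel per gene, treatments on the x axis and 1 line of points per cell line; open triangles mark libraries with 0 reads. EGR1, EGR2 and NR4A1 are lower with ibrutinib than in the control of the same line in all 3 lines, DUSP4 and SPRY2 are high in JVM2 alone, and DUSP6 in MAVER1 is low in both libraries with ironomycin.

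The first question was whether the readouts changed when BTK was inhibited. EGR1, EGR2, EGR3 and NR4A1 were lower with ibrutinib by 2.38- to 3.86-fold when the 6 pairs of libraries with and without ibrutinib were fitted together, while DUSP6 and SPRY2 stood at 0.13 and 0.01 on the log2 scale. The 6 pairs come from 3 lines, and EGR3 had almost no reads in MAVER1. In ibrutinib against control alone, no member was called. With counts summed within a line, EGR1 and NR4A1 were called and EGR2 and EGR3 were not.

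EGR1, a zinc finger factor that is among the first genes induced by ERK, stood in JEKO1 at 9.37 CPM in the control and at 4.66 CPM with ironomycin, 2.34 CPM under ibrutinib and 1.25 CPM under the combination. In JVM2 the values were 13.9, 21.1, 3.61 and 6.44 CPM, in the same order. In MAVER1 they were 0.193, 0.859, 0.0808 and 0.369 CPM, from 7, 32, 3 and 14 reads. In JEKO1 and JVM2, both libraries with ibrutinib lay below both libraries without it, and in MAVER1 each library with ibrutinib lay below its partner but the ranges overlapped. Against its own control, EGR1 was 75.1% lower with ibrutinib in JEKO1 and 74.0% lower in JVM2. The MAVER1 ratio of ibrutinib to control was 0.418, with a 95% exact binomial interval of 0.0697 to 1.83, which covers counting error only and includes equality.

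EGR2, a paralog of EGR1 induced through the same cascade and through calcium, had 7.84, 5.38, 0.779 and 0.923 CPM in JEKO1 (control, ironomycin, ibrutinib, both drugs). The JVM2 values were 8.96, 9.94, 2.24 and 2.83 CPM and the MAVER1 values 1.82, 5.18, 0.862 and 2.59 CPM. All 6 libraries with ibrutinib were below their partners, by 90.1% in JEKO1, 75.0% in JVM2 and 52.7% in MAVER1 for ibrutinib against control. EGR3, the third of these paralogs, had 3.22, 0.670, 0.478 and 0.118 CPM in JEKO1 and 6.79, 12.03, 3.89 and 6.01 CPM in JVM2. MAVER1 held 0 EGR3 reads in 3 libraries and 5 reads with ironomycin, so it carried almost no information on this gene.

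NR4A1 had 42.9, 24.5, 16.0 and 12.04 CPM in JEKO1, and 10.3, 10.4, 4.90 and 7.11 CPM in JVM2. In MAVER1 it had 48.6, 54.2, 16.6 and 16.9 CPM. In each line, both libraries with ibrutinib lay below both libraries without it, and it was below control by 62.7% in JEKO1, by 52.5% in JVM2 and by 65.8% in MAVER1. FOS, a subunit of the AP-1 factor, was scarce in all libraries, with 35, 10, 7 and 9 reads in JEKO1, 6, 9, 1 and 5 in JVM2 and 7, 34, 4 and 17 in MAVER1. Each FOS library with ibrutinib was below its partner, but the counting interval of the ratio excluded equality in only 2 of the 6 pairs.

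Among the feedback inhibitors, DUSP2 had 64.7, 50.3, 31.5 and 32.5 CPM in JEKO1. It had 154, 175, 113 and 123 CPM in JVM2, and 34.9, 23.7, 23.5 and 18.4 CPM in MAVER1. All 6 pairs were lower with ibrutinib, with log2 ratios from -1.04 to -0.36, so the direction was shared and the size was smaller than for the EGR genes. SPRED2, which holds RAS in check together with NF1, had 5.33, 5.19, 3.09 and 1.37 CPM in JEKO1, 14.5, 15.9, 12.6 and 13.9 CPM in JVM2 and 15.5, 15.3, 14.98 and 10.8 CPM in MAVER1. Its log2 ratios ran from -1.88, in JEKO1 with ironomycin, to -0.05, in MAVER1 without it.

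DUSP4 was readable in JVM2, where it stood at 160, 198, 128 and 162 CPM and was 20.2% lower with ibrutinib than in the control. SPRY2 was higher in 3 pairs and lower in 3, with log2 ratios from -0.15 to 0.25. DUSP6 had 11, 4, 13 and 6 reads in JEKO1, 1 to 3 in JVM2 and 70, 18, 78 and 15 in MAVER1. The DUSP6 ratio of ibrutinib to control in MAVER1 was 1.09, with a 95% exact binomial interval of 0.776 to 1.52 that includes equality and leaves out ratios as low as those of EGR2 and NR4A1 in this line (0.473 and 0.342).

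Across the 6 pairs, with each pair given its own level, edgeR's quasi-likelihood F-test called 4 of the 10 members, all lower with ibrutinib. Calls needed an adjusted p (Benjamini-Hochberg) below 0.05 and a change of 1 or more on the log2 scale, and 0.418% of the 18674 genes were called, 0.289% of them lower. The log2 fold change of EGR1 was -1.82 (SE 0.11, adjusted p = 1.74e-05), that of EGR2 -1.95 (SE 0.24, adjusted p = 0.0026), that of NR4A1 -1.25 (SE 0.12, adjusted p = 0.000636) and that of EGR3 -1.40 (SE 0.28, adjusted p = 0.0324). DUSP2 also passed the p-value threshold but not the fold minimum (-0.59, SE 0.08, adjusted p = 0.00333). The remaining 5 did not pass: FOS at -1.21 (SE 0.31, adjusted p = 0.063), SPRED2 at -0.50 (SE 0.17, adjusted p = 0.137), DUSP4 at -0.30 (SE 0.09, adjusted p = 0.0975), DUSP6 at 0.13 (SE 0.22) and SPRY2 at 0.01 (SE 0.08). The median log2 fold change was -0.90 over the 10 members and 0.01 over all genes tested. By count, 6 members (EGR1, EGR2, DUSP2, FOS, NR4A1 and SPRED2) were lower in each of the 6 pairs, beside 6.53% of all genes. Because the members were chosen with earlier results of these data known, their shares beside all genes are not an independent test.

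This test treats the 6 pairs as replicates although they come from 3 lines. When the counts of the libraries with and without ibrutinib were summed within a line, so that 3 pairs remained, EGR1 (-1.81, adjusted p = 0.0118) and NR4A1 (-1.26, adjusted p = 0.044) were called, whereas EGR2 (-1.94, adjusted p = 0.119) and EGR3 (-1.54, adjusted p = 0.194) were not. With each line left out in turn, EGR1 stayed between -1.88 and -1.76, EGR2 between -2.34 and -1.54 and NR4A1 between -1.43 and -1.03, all called each time. EGR3 was at -0.95 without JEKO1, which is under the fold minimum, at -2.72 without JVM2, and at -1.36 without MAVER1 (adjusted p = 0.0977).

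**Figure D2:**
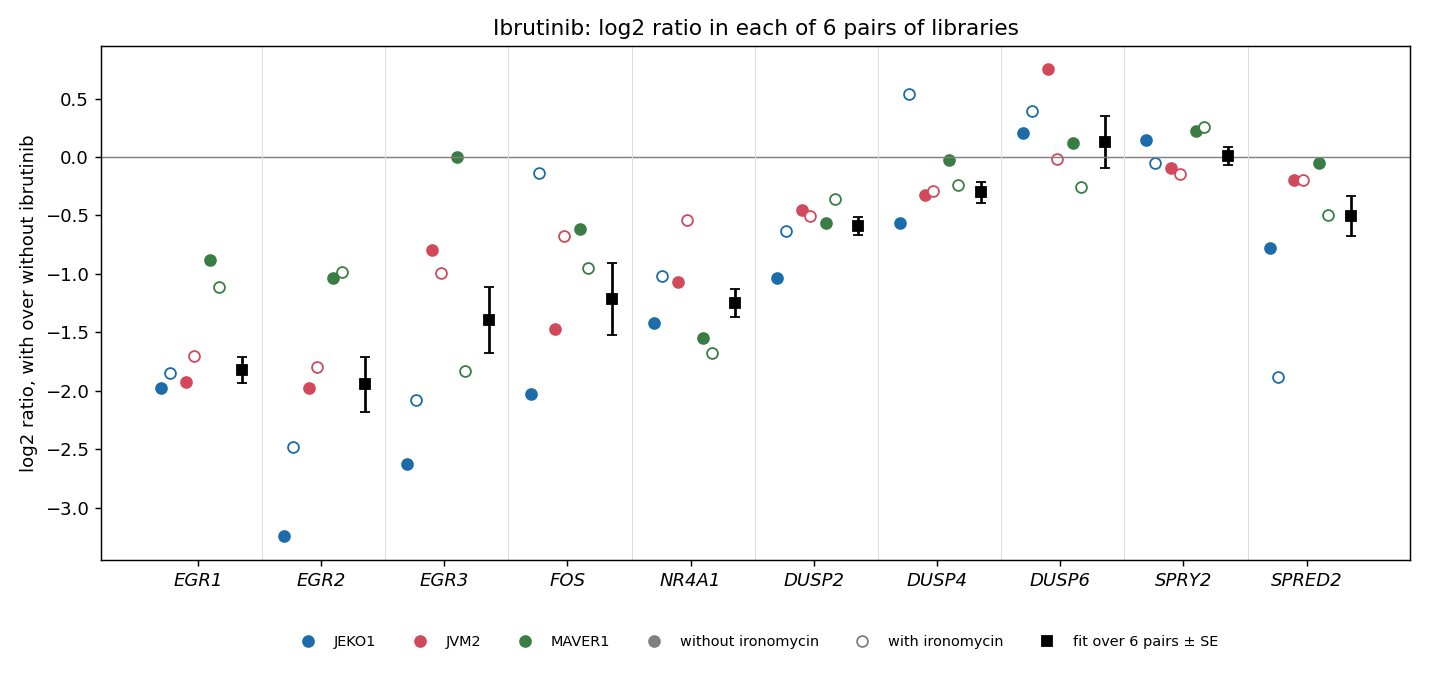
Log2 ratio of the level with ibrutinib over that without it, for each of the 10 genes in each of the 6 pairs of libraries (filled, without ironomycin; open, with ironomycin; prior count of 2 reads), with the fitted log2 fold change ± SE as a black square. The squares of EGR1 (-1.82), EGR2 (-1.95), EGR3 (-1.40) and NR4A1 (-1.25) lie below -1, and those of DUSP6 (0.13) and SPRY2 (0.01) near 0; the JEKO1 points of DUSP4 rest on at most 1 read.

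Taken as ibrutinib against control alone, with 3 pairs, no member and no other gene was called (0%, with 680 of 18674 genes at an unadjusted p under 0.05). The 10 members had log2 fold changes with a median of -1.03 (all genes 0.00), and 6 of them had an unadjusted p under 0.05. EGR2 stood at -2.29 (SE 0.50), FOS at -1.98 (SE 0.77), EGR3 at -1.94 (SE 0.77), EGR1 at -1.88 (SE 0.49), NR4A1 at -1.37 (SE 0.24) and DUSP2 at -0.69 (SE 0.15). The smallest adjusted p among them was that of NR4A1, 0.326. DESeq2 called 11 genes here, EGR2 and NR4A1 among them, and a fit of only the 6 libraries compared called 12, EGR1 and NR4A1 among them. By direction alone, 7 of the 10 members were lower than control in each of the 3 lines, beside 15.2% of all genes. DUSP4 counts among the 7 on hardly any reads outside JVM2. Its control and ibrutinib libraries held 1 and 0 reads in JEKO1, and 6 and 6 in MAVER1, where only the scaling set them apart.

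The libraries with both drugs were compared with those with ironomycin to ask whether ibrutinib acted in the same way on cells that also received ironomycin. Again no gene was called (0%, with 1970 genes at an unadjusted p under 0.05). The fitted values of the 10 members were all below 0, with a median of -0.76 (all genes 0.01), and EGR1 (-1.71, SE 0.49), EGR2 (-1.65, SE 0.47) and NR4A1 (-1.11, SE 0.24) led. DESeq2 called 22 genes, with EGR2 and NR4A1 among them. How far the combination departed from the summed single log2 changes was also tested, and a departure was called for no gene (0%, with 367 genes at an unadjusted p under 0.05, none of them a member). It was 0.17 for EGR1 with an SE of 0.69, and 0.26 for NR4A1 with an SE of 0.34, so departures of a size near 1 could not have been told from 0 for EGR1.

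Whether ibrutinib acted to a different degree in the 3 lines was tested by the interaction of ibrutinib with cell line, called at an adjusted p under 0.05, which called 177 genes (0.948%). EGR2 was the 1 member called (adjusted p = 0.0349), with log2 ratios of -3.25 and -2.48 in JEKO1, -1.98 and -1.79 in JVM2 and -1.04 and -0.99 in MAVER1. The call was lost with any 1 line left out (adjusted p = 0.195 without JEKO1, 0.0903 without JVM2 and 0.175 without MAVER1). EGR3 followed at an adjusted p of 0.0615, and was called without MAVER1 (0.0328), where it had almost no reads. NR4A1 was at 0.171. For EGR1, whose log2 ratios were -1.98 to -1.85 in JEKO1, -1.93 to -1.70 in JVM2 and -1.11 to -0.88 in MAVER1, the adjusted p was 0.752. NR4A1 had its lowest ratios in MAVER1 (-1.68 to -1.55), the line given the highest dose. EGR1, EGR2, EGR3, DUSP2 and SPRED2 had theirs in JEKO1, the line given the lowest dose, and of these only EGR2 was called. FOS had both its lowest and its highest ratio in JEKO1 (-2.03 and -0.14). Line and dose cannot be told apart here. SPRED2 was at -1.88 to -0.77 in JEKO1 against -0.49 to -0.05 in the other lines (adjusted p = 0.216).

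Ironomycin alone called no member against control, with 0.214% of all genes called (40 genes). The fitted log2 fold changes of EGR1 (0.14, SE 0.45), EGR2 (0.17, SE 0.44), FOS (0.12, SE 0.62) and NR4A1 (-0.21, SE 0.24) were smaller than their errors. DUSP6 had the largest value, -1.64 (SE 0.42, adjusted p = 0.0798). It rested on MAVER1, where the reads went from 70 to 18, and to a lesser extent on JEKO1 (11 to 4). Without JVM2, whose libraries held 1 to 3 reads, DUSP6 was at -1.88 and called (adjusted p = 0.0336).

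Behind these averages, the lines moved in different directions. The interaction of ironomycin with cell line called 6 of the 10 members, EGR1, EGR2, EGR3, FOS, NR4A1 and DUSP2, beside 13.3% of all genes (2488 genes). EGR1 had log2 ratios of -0.999 to -0.871 in JEKO1, 0.60 to 0.83 in JVM2 and 1.66 to 1.89 in MAVER1, over the pairs without and with ibrutinib (adjusted p = 0.000609). The 2 pairs of a line gave nearly the same ratio, and the ranges of the 3 lines did not overlap. EGR3 had -2.18 to -1.63 in JEKO1 and 0.62 to 0.82 in JVM2 (adjusted p = 0.000972), while the MAVER1 values rest on 5 reads in 1 library. EGR2 was at 1.48 to 1.53 in MAVER1, 0.15 to 0.33 in JVM2 and -0.54 to 0.23 in JEKO1 (adjusted p = 0.00544).

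FOS followed the order of EGR1 with 1.64 to 1.97 in MAVER1, 0.42 to 1.22 in JVM2 and -1.68 to 0.22 in JEKO1 (adjusted p = 0.0342), from 35 reads or fewer per library. NR4A1 was lower with ironomycin in JEKO1 alone, at -0.81 to -0.41, against 0.01 to 0.53 in JVM2 and 0.03 to 0.16 in MAVER1 (adjusted p = 0.0206). DUSP2 was at -0.56 to -0.35 in MAVER1, 0.12 to 0.18 in JVM2 and -0.36 to 0.04 in JEKO1 (adjusted p = 0.0406). DUSP6 did not differ by this test (adjusted p = 0.249), at -2.26 to -1.89 in MAVER1 and -1.15 to -0.96 in JEKO1. With 1 line left out the number of members called was 2 to 3, and EGR1 was among them each time. JEKO1 received 50 nM of ironomycin, so its difference from the other lines cannot be told apart from the dose. Between JVM2 and MAVER1, both at 250 nM, DUSP2 (adjusted p = 0.00271), EGR2 (0.00322) and EGR1 (0.0399) were called when JEKO1 was left out, 3 of the 10 members beside 17.8% of the genes tested in that fit.

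**Figure D3:**
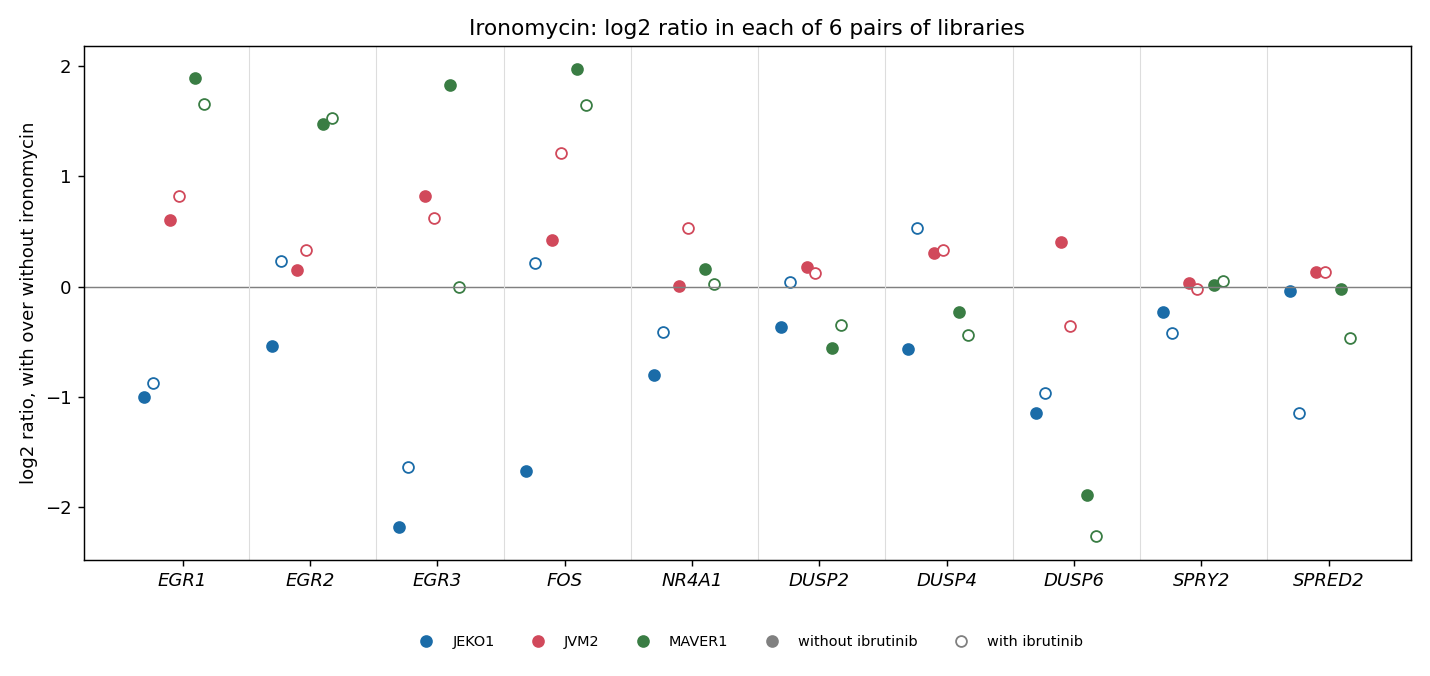
Log2 ratio of the level with ironomycin over that without it, for each of the 10 genes in each of the 6 pairs of libraries (filled, without ibrutinib; open, with ibrutinib; prior count of 2 reads). For EGR1 the JEKO1 points lie at -0.999 and -0.871, the JVM2 points at 0.60 and 0.83 and the MAVER1 points at 1.89 and 1.66, while the 4 DUSP6 points of JEKO1 and MAVER1 all lie below 0.

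Both drugs against control called 4 members, all lower, where 6.29% of all genes were called and 1.48% were called lower. They were NR4A1 (-1.32, SE 0.25, adjusted p = 0.00521), DUSP6 (-1.65, SE 0.43, adjusted p = 0.0175), EGR1 (-1.57, SE 0.49, adjusted p = 0.0375) and EGR2 (-1.49, SE 0.48, adjusted p = 0.0408). DUSP2 passed the p-value threshold at -0.75 (SE 0.15, adjusted p = 0.00692) without reaching the fold minimum. For EGR1 the log2 ratio against control was -2.85 in JEKO1 and 0.78 in MAVER1, and for EGR2 -3.02 and 0.49, so with both drugs MAVER1 was above its control for both genes (14 reads against 7 for EGR1). NR4A1 was below control in every line, from -1.83 to -0.53. The DUSP6 call rested mainly on MAVER1, where reads went from 70 to 15. In JEKO1 they went from 11 to 6, with a counting interval of the ratio that includes equality, and in JVM2 from 1 to 2. No member was called without JEKO1 or without MAVER1, and without JVM2 the members called were EGR3, DUSP6, NR4A1 and SPRED2. A fit of only the 6 libraries compared called no member. DESeq2 did not call EGR1 (-1.20, adjusted p = 0.17), and edgeR scaled by library totals did not call EGR2 (-1.37, adjusted p = 0.0506).

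Other genes of the same processes were taken from written lists, chosen like the members with earlier results of these data known. Over the 6 ibrutinib pairs, 0 of 24 other immediate early genes were called (median log2 fold change -0.16), 0 of 18 other ERK feedback and output genes (-0.23), 0 of 28 components of the RAS to ERK cascade (-0.02), 0 of 20 other BCR activation targets (-0.10) and 0 of 12 receptor-proximal kinases and adaptors (-0.07). Without the fold minimum, 2.34% of all genes passed, among them 3 of the 24 immediate early genes, 3 of the 12 receptor-proximal genes, 1 of the 20 BCR targets and none of the feedback genes and cascade components. The 3 immediate early genes, all lower, are named although they were chosen after their values were seen. NAB2, which encodes a corepressor of EGR proteins and is itself an EGR target, was at -0.53 (SE 0.08, adjusted p = 0.0105), ZFP36, an mRNA decay factor, at -0.37 (SE 0.06, adjusted p = 0.0118) and JUND, an AP-1 subunit, at -0.26 (SE 0.06, adjusted p = 0.046). Immediate early transcripts can also be induced by handling, which was not tested. With 1 library per line and treatment, handling cannot be told apart from the drug. Of 10 heat shock and handling stress genes, 0 were called over the 6 pairs, with a median of -0.01, and 1 (HSPB1) passed the p-value threshold, at -0.32.

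Differences between lines were called mostly in 1 of these lists. In the interaction of ibrutinib with line, 7 of 20 other BCR activation targets were called (0.948% of all genes), and JEKO1 had the lowest ratio in each of the 7. The same test called 0 of 24 other immediate early genes, 1 of 18 other feedback and output genes and 1 of 28 cascade components. It called 0 of 12 receptor-proximal genes and 0 of 10 stress genes. Ratios of single targets in this paragraph are those without ironomycin, whereas the adjusted p-values draw on the pairs with and without it. Over the 20 targets the median log2 fold change was -0.30 for ibrutinib against control, with 19 below 0. For both drugs against ironomycin it was -0.01, with 10 below 0. CD83, a surface protein of activated B cells, stood in JEKO1 at 81.5 CPM in the control and 13.2 with ibrutinib, a log2 ratio of -2.62, against 0.12 in JVM2 and 0.02 in MAVER1 (adjusted p = 0.0216). ICAM1, an adhesion molecule, was at -2.85 in JEKO1, 0.39 in JVM2 and 0.02 in MAVER1 (adjusted p = 0.0339). RGS1, which damps chemokine receptor signals, was at -2.36, -0.01 and 0.04 (adjusted p = 0.00948). NFKBIE (-1.11, 0.19 and -0.20), CCR7 (-0.90, 0.36 and 0.30), BCL2A1 (-3.14, -0.10 and 1.17) and EBI3 made up the rest. EBI3 went from 0.804 CPM to 0 reads in JEKO1, so the size of its ratio depends on the prior count, and BCL2A1 stood at 3.07 CPM in the JEKO1 control and 0.138 CPM in the MAVER1 control.

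All 7 calls were lost without JEKO1, and without JVM2 they were lost for RGS1 (adjusted p = 0.0609), CCR7 (0.0627), CD83 (0.0903), ICAM1 (0.113), NFKBIE (0.252) and BCL2A1 (0.362). With no filter on low counts, ICAM1, EBI3, CD83, BCL2A1 and NFKBIE were not called, and with DESeq2 ICAM1 and BCL2A1 were not. In the full fit the JEKO1 ratio of these targets stood apart, whereas EGR1, EGR2 and NR4A1 were below their controls in all 3 lines. The contrast is not clean, since EGR2 was called by the same interaction test (adjusted p = 0.0349) with its lowest ratios in JEKO1. In MAVER1, EGR1 rests on 3 reads with ibrutinib against 7 in the control, and its counting interval includes equality. DUSP5, an ERK phosphatase of the nucleus and the 1 feedback gene called, was at -2.67 in JEKO1, 0.04 in JVM2 and -1.24 in MAVER1 (adjusted p = 0.0031, and 0.913 without JVM2). RASGRP1, the exchange factor that links diacylglycerol to RAS, was at -0.31, -0.16 and -0.88 (adjusted p = 0.0368), and was not called without JVM2 (0.183) or without MAVER1 (0.842).

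**Figure D4:**
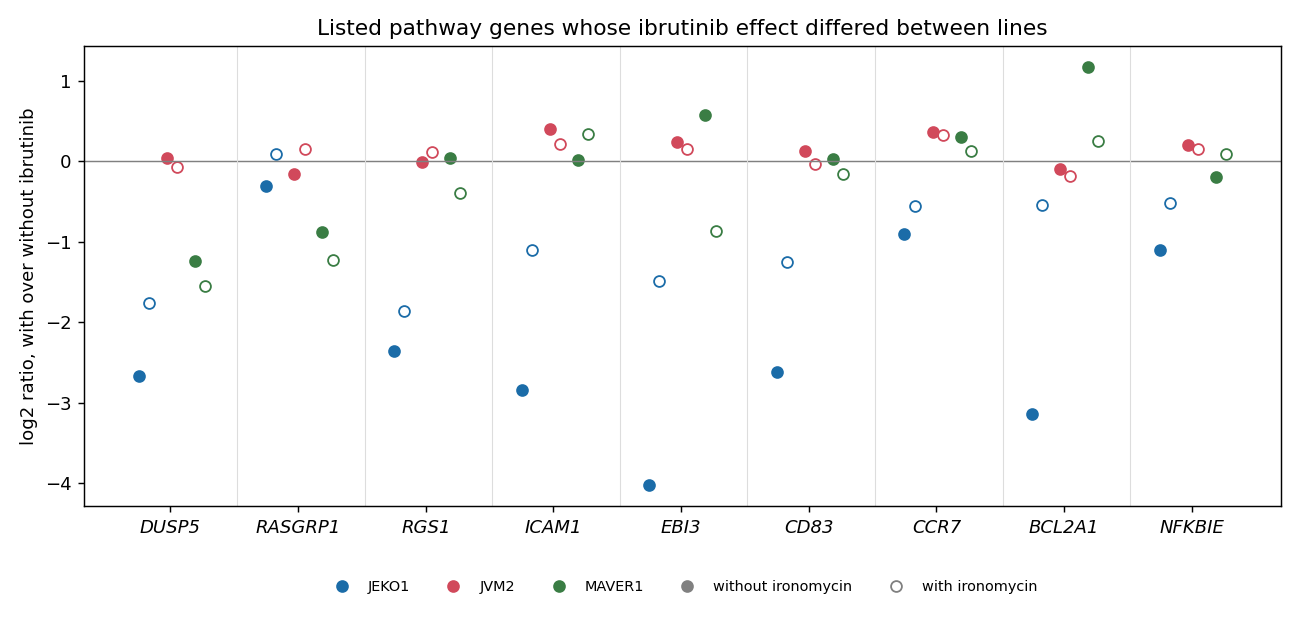
Log2 ratio with over without ibrutinib in the 6 pairs of libraries for the 9 listed genes whose ibrutinib effect differed between lines (filled, without ironomycin; open, with ironomycin; prior count of 2 reads). For CD83, ICAM1 and RGS1 the filled JEKO1 points lie at -2.62, -2.85 and -2.36 and the JVM2 and MAVER1 points without ironomycin between -0.01 and 0.39.

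With both drugs against control, 1 of 24 other immediate early genes was called higher, beside 4.81% of all genes. It was ATF3, a stress-induced factor that is also a target of the integrated stress response, at 1.18 (SE 0.36, adjusted p = 0.0341). Of the 18 other feedback and output genes, 2 were called lower (all genes 1.48%), SPRY1, a paralog of SPRY2, at -1.58 (SE 0.33, adjusted p = 0.00769) and ETV4, an ETS factor downstream of ERK, at -1.20 (SE 0.40, adjusted p = 0.0453). FCRL2, an Fc receptor-like protein, was called lower among the BCR targets with both drugs (-3.08, adjusted p = 0.00191) and with ironomycin alone (-2.28, adjusted p = 0.0245), and HSPB1 among the stress genes at -1.21 (adjusted p = 0.00518). ETV4, FCRL2 and HSPB1 are named although they were chosen after their values were seen. None of the 28 cascade components was called (all genes 6.29%). The ATF3 call was lost without JEKO1 (0.47, adjusted p = 0.0836) and without MAVER1 (1.53, adjusted p = 0.118), as was that of SPRY1 (-1.63, adjusted p = 0.0974, and -1.22, adjusted p = 0.0927), and a fit of only the 6 libraries compared called neither gene.

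After subtraction of each line's mean, the log2 levels of the EGR genes, FOS and NR4A1 moved together over the 12 libraries, which share 3 lines and 4 treatments and are not independent. Pearson's r with EGR1 was 0.94 for EGR2, 0.91 for FOS, 0.87 for EGR3 and 0.78 for NR4A1. DUSP2 (0.56) and SPRED2 (0.59) were less like it, and SPRY2 (0.17), DUSP4 (0.15) and DUSP6 (-0.45) were not like it. Of the 11669 genes whose mean log2 CPM was 1 or more, those most like EGR1 were DUSP3, a small dual-specificity phosphatase (0.94), EGR2 (0.94), CHP1 (0.91), LINC03034 (0.90) and CRY1 (0.90). For DUSP6 they were MTA3 (0.98), MED10 (0.97), LLPH (0.97), KLHL25 (0.97) and TRERF1 (0.97), and no member was among them.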

How the data were processed

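RNA was sequenced from JEKO1, JVM2 and MAVER1 cells after 48 h untreated, with ironomycin, with ibrutinib or with both (12 libraries). The values deposited are counts that the authors made, whole reads per Ensembl gene with no normalization. The submitters' processing notes name STAR, GRCh37 and DESeq2, with no versions, while the counting tool, its strand setting and the annotation release are not given in the sources used here, so overlapping and antisense genes may share reads. Gene symbols were matched by Ensembl identifier for 52181 of 63677 genes, and 3 list genes were not matched.

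For each comparison, edgeR 4.0.16 (R 4.3.3) was run on all 12 libraries, with TMM, filterByExpr and the quasi-likelihood F-test. The model held treatment and line, and p-values were adjusted by Benjamini-Hochberg across 18674 genes. Calls required an adjusted p below 0.05 and a log2 change of 1 or more in size, or the p threshold alone in the tests between lines. Each line gave 1 library per treatment, so no test shows how far cultures of 1 line vary. The tests between lines measure their spread from how the ratio for one drug differed with and without the other. The line was a block because its libraries come from the same cells: their deviations from treatment means had r of 0.926 to 0.976 within a line (18 pairs), and of -0.684 to -0.127 across lines (36 pairs). Log2 ratios of single pairs used a prior count of 2, and exon lengths for values per kb were those of GENCODE on GRCh38. DESeq2 1.42.0 was an alternative, beside other scalings, filters, the line term, the libraries fitted and each line left out. The fit on counts summed within a line was added after seeing the data. The tests were checked on simulated counts.

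The members and gene lists were chosen with earlier results of these data known. The text names the members, list genes called in a test of ibrutinib, the 2 largest rises and falls among list genes called with ironomycin or both drugs whose mean log2 CPM reached 1, and the 5 genes most like EGR1 and DUSP6. Of the genes this rule and the marker lists cover, 2 are not reported here. Python 3.11.15 was used with pandas 2.3.3 for tables, scipy 1.17.1 for intervals and matplotlib 3.10.9 for plots.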

Additional observations from a re-analysis of the deposited data

Results flagged for a closer look

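Drug effects on 10 of the genes named differed between cell lines for ibrutinib by the interaction test in edgeR's quasi-likelihood fit. The adjusted p was 0.0349 for EGR2 among the members, 0.0031 for DUSP5, 0.0368 for RASGRP1, 0.00913 for CCR7, 0.00948 for RGS1, 0.0138 for EBI3, 0.0216 for CD83, 0.0339 for ICAM1, 0.0423 for BCL2A1 and 0.0473 for NFKBIE.

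For ironomycin the same test differed between lines for 14 of the genes named. Members were EGR1 (adjusted p = 0.000609), EGR3 (0.000972), EGR2 (0.00544), NR4A1 (0.0206), FOS (0.0342) and DUSP2 (0.0406). The listed genes were ATF3 (0.000182), RASGRP1 (0.0020), CCR7 (0.00335), RGS1 (0.00355), EBI3 (0.00525), BCL2A1 (0.00554), SPRY1 (0.0088) and NFKBIE (0.0408). The ibrutinib dose differed between all lines, and the ironomycin dose between JEKO1 and the other lines.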

How the results depend on the processing

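EGR1 and NR4A1 were called lower over the 6 ibrutinib pairs in each of 9 alternatives, EGR2 in 8 and EGR3 in 6, and no called member changed direction. Counts in the fits with 3 pairs depended on the setting. Reads were under 10 in every library for EGR3 in MAVER1, DUSP4 in JEKO1 and MAVER1, and DUSP6 and FOS in JVM2. They were under 10 in some libraries for EGR1 and FOS in MAVER1 and for EGR3, FOS and DUSP6 in JEKO1.

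For ibrutinib against control (0 genes and 0 members called), DESeq2 called 11 genes and 2 members, no filter on low counts 10 and 1, and the 6 libraries alone 12 and 2. Leaving out a line gave 0 to 1 genes. For both drugs against ironomycin (0 and 0), DESeq2 called 22 genes and 2 members, no filter 24 genes, the 6 libraries alone 33 genes and 2 members, and leaving out a line 0 to 7 genes.

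For ironomycin against control (40 genes, 24 higher and 16 lower), DESeq2 called 156, library totals 69 (54 higher and 15 lower), no filter 189, the 6 libraries alone 2, no fold minimum 109, and leaving out a line 1 to 369 genes and 0 to 1 members. For both drugs against control (1175 genes, 898 higher and 277 lower, and 4 members), library totals called 1266 higher and 197 lower, the 6 libraries alone 5 genes and 0 members, no fold minimum 5268 genes, and leaving out a line 22 to 1877 genes and 0 to 4 members. Without the cell line as replicate block, 0 genes and 0 members were called in each of these comparisons with control.

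Over the 6 pairs (78 genes, 4 members), counts summed within a line called 16 genes and 2 members, DESeq2 42 genes, no fold minimum 437, and leaving out a line 39 to 132. For ibrutinib by cell line (177 genes, 1 member), DESeq2 called 335 genes, no filter 53 genes and 0 members, and leaving out a line 10 to 231 genes and 0 to 1 members. For ironomycin by cell line (2488 genes, 6 members), no filter called 1232 genes and 3 members, and leaving out a line 439 to 3173 genes and 2 to 3 members. The cause of these shifts was not tested.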
